A study of Homo sapiens with 9 samples.

Results

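Gene expression was compared between ALL-SIL cells electroporated with the siRNA labelled TLX1 siRNA2 and ALL-SIL cells electroporated with the siRNA labelled NTC. ALL-SIL is an established human line of leukaemic T-lineage cells (T-cell acute lymphoblastic leukaemia, T-ALL), and all libraries came from it. The 3 libraries labelled siRNA2 and the 3 labelled NTC were taken by their titles and paired by replicate number, which used 6 of the 9 polyA RNA libraries of the study. The other 3 libraries, labelled TLX1 siRNA1, entered the same fit and are given beside them where a result turns on them. Electroporation was common to every group. The sources used here give neither the siRNA sequences nor the meaning of NTC, the dose or the harvest time, and whether a replicate was a culture of its own is not stated. The p-values therefore reflect the spread of these libraries alone, and that spread could be technical.

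TLX1 is a homeobox transcription factor that is silent in normal thymocytes and is switched on in a subset of T-ALL, where it acts as an oncogene and represses genes of T cell maturation. A small interfering RNA (siRNA) is a short RNA duplex, and 1 of its strands is loaded into an Argonaute protein and directs cleavage of the mRNA it matches in full. Such a guide strand can also lower mRNAs that match only its seed, the bases near its 5′ end, most often in the 3′ untranslated region (UTR), as a microRNA does.

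Depth was between 58305492 and 99524663 gene counts per library. Values are CPM, gene counts scaled to a common library size with trimmed-mean (TMM) factors. All 14 T cell markers examined were detected above 1 CPM in at least 1 library, with a summed level, before TMM scaling, of 2500 to 2775 CPM in siRNA2 libraries and 2665 to 2737 CPM in NTC libraries. All 17 myeloid markers were under 1 CPM in every library, and S100A8 and S100A9 were at 0. Other lists were not wholly absent: 9 of 16 B cell and 15 of 23 NK and cytotoxic markers were under 1 CPM in every library. So were 13 of 15 erythroid and megakaryocyte and 11 of 13 epithelial and fibroblast markers. Summed levels of these 4 lists in siRNA2 libraries, before TMM scaling, reached 237, 313, 1668 and 292.5 CPM in that order. The library kit did not mark strand, so reads of overlapping genes on opposite strands cannot be told apart, and in a bulk sample fewer cells of a type and less RNA per cell cannot be told apart either.

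The targeted gene was not lower in the libraries labelled siRNA2. TLX1 (ENSG00000107807, chr10:101130505-101137789 on GRCh38, plus strand) stood at 198, 231 and 179 CPM in the siRNA2 libraries of replicates 1 to 3, against 184, 167 and 183 CPM in the NTC libraries. These groups overlapped, and the siRNA2 library of replicate 2 was the highest of the 6. The log2 fold change was 0.18 ± 0.08 (SE) and did not pass the test (edgeR quasi-likelihood test with the replicate number as a block, Benjamini-Hochberg adjusted p = 0.495). It was 0.04 without replicate 2 and 0.28 without replicate 3, again with no pass. In the libraries labelled siRNA1, TLX1 stood at 406, 457 and 387 CPM, above all 6 others, with a log2 fold change against NTC of 1.22 ± 0.08 (adjusted p = 2.05e-10 in the same edgeR fit). The level of the targeted gene thus goes against the labels, and every direction here is by label. Whether labels were exchanged between groups, the NTC and siRNA1 libraries included, was not tested. Such an exchange would change what each comparison sets against what.

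**Figure D1:**
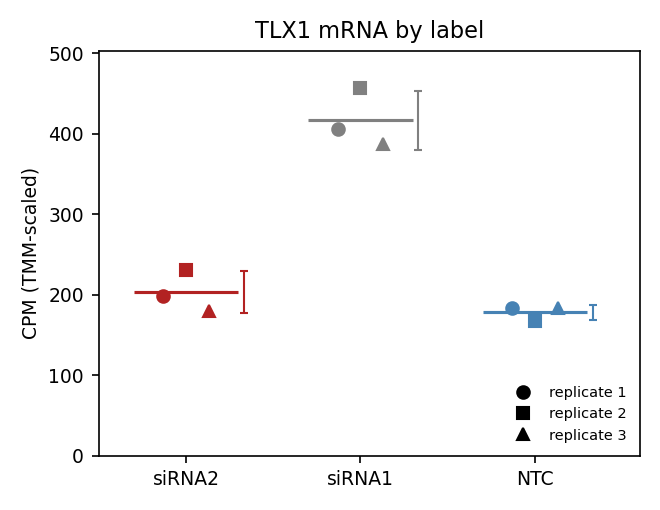
TLX1 level in CPM (y axis) in the libraries labelled siRNA2, siRNA1 and NTC (x axis). Points are libraries, with a symbol for each replicate number; lines are group means and bars are SD, n = 3. The siRNA2 libraries lie between 179 and 231 CPM and overlap with the NTC libraries, and the siRNA1 libraries lie between 387 and 457 CPM.

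The other TLX genes had few counts. TLX3 had 41, 54 and 33 counts in the siRNA2, siRNA1 and NTC libraries of replicate 1. It had 0 counts in every library of replicates 2 and 3. TLX3 was thus seen in replicate 1 alone, under all 3 labels, and the cause was not tested. TLX2 had at most 5 counts in any siRNA2 library and at most 1 in any NTC library.

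Few mRNAs differed between siRNA2 and NTC, and the differences were small. Of 18554 genes tested, 28 passed (0.151%) at an adjusted p under 0.05 in the edgeR fit with the replicate block. In siRNA2 libraries 16 of them rose (0.0862% of genes tested) and 12 fell (0.0647%), and all 28 were protein coding. The fold change was over 1.5 in 8 of them and over 2 in none. All 28 had the same direction in all 3 replicate pairs, which 25.9% of all genes tested had, and in 24 of the 28 the siRNA2 and NTC libraries did not overlap, which held for 5.58% of all genes tested. That was 12 of the 16 that rose (2.86% of genes tested lay apart in this direction) and all 12 that fell (2.72%). Both shares concern genes picked by their p in the same libraries and describe them only.

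The count rested on the pairing of libraries by replicate number and on single libraries. Without the block edgeR called 0 genes, with a lowest adjusted p of 0.407 and 392 genes (2.11%) at an unadjusted p under 0.05. With the block 1553 genes (8.37%) had such a p, 3.87% of genes tested higher and 4.5% lower. The count was 93, 81 and 6 when the libraries of replicate 1, 2 or 3 were left out, 65 without siRNA2 replicate 1, 4 without siRNA2 replicate 3 and 108 without NTC replicate 1. The larger of these counts call for caution. In edgeR the lowest adjusted p was 4.4e-48 without replicate 1, implausibly small for so few libraries, against 1.97e-05 in the main fit. SHMT1, U2AF2, EZR and GINM1 were the 4 genes that still passed without siRNA2 replicate 3, and they passed in each of the other 5 fits that left out a single siRNA2 or NTC library. All 28 kept their direction in every fit.

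**Figure D2:**
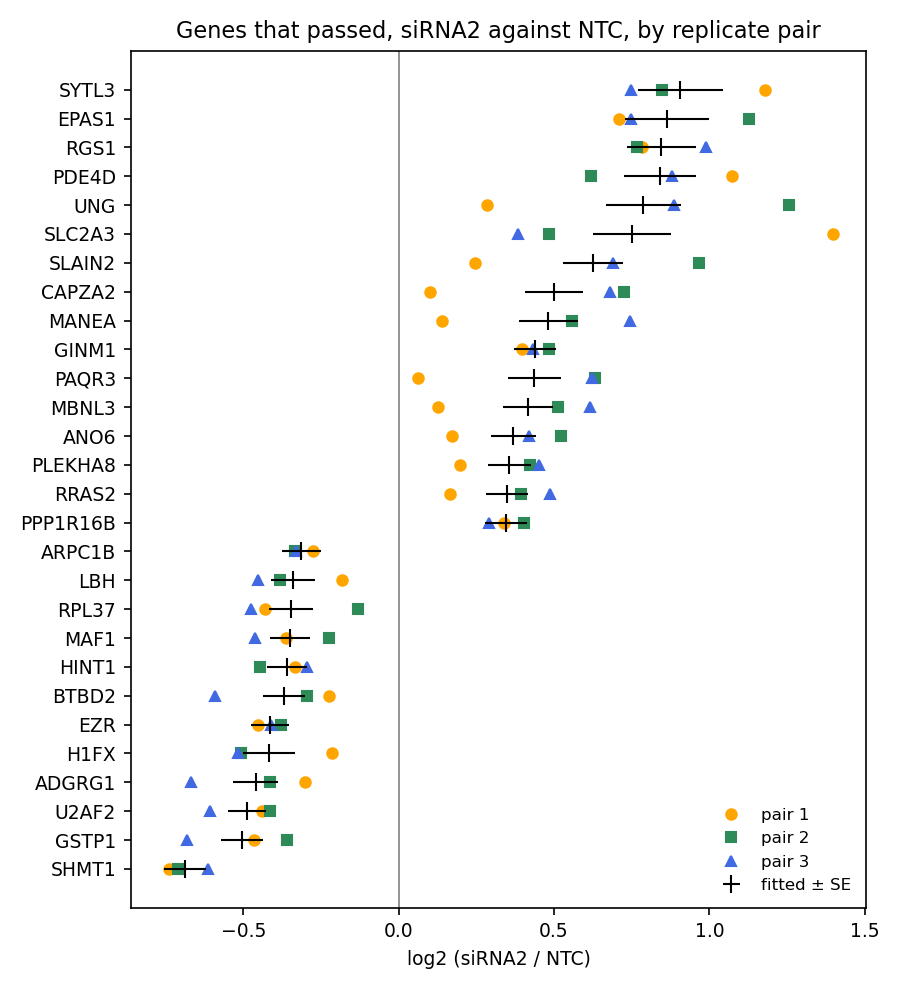
Log2 ratio of siRNA2 over NTC (x axis) within each replicate pair for the 28 genes that passed (y axis). Coloured symbols are pairs 1, 2 and 3, and black marks are the fitted log2 fold change with its SE. Every symbol lies on the side of its gene's fitted value, and 11 of the 16 genes that rose have their smallest ratio in pair 1.

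The gene with the smallest p was SHMT1, the cytosolic serine hydroxymethyltransferase, which moves a carbon unit from serine to folate. It stood at 68.2, 48.5 and 62.4 CPM in siRNA2 libraries, against 114, 79.3 and 95.5 CPM in NTC libraries. The groups did not overlap, and replicate 2 was the lowest library in both. SHMT1 fell by 0.69 ± 0.07 (SE) on the log2 scale, to 0.621 of the NTC level (edgeR, adjusted p = 1.97e-05). GSTP1, a glutathione S-transferase that conjugates reactive compounds, stood at 314, 306 and 281 CPM in siRNA2 libraries, against 433, 392 and 452 CPM in NTC libraries. It too was without overlap and fell by 0.50 ± 0.07 on the log2 scale (adjusted p = 9.51e-04, edgeR). HINT1, a nucleotide hydrolase of the histidine triad family, fell by 0.36 (adjusted p = 0.0196, edgeR), with 220 to 274 CPM in siRNA2 libraries, against 277 to 337 CPM in NTC libraries.

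Genes of RNA processing, RNA polymerase III control, ribosomes and chromatin were among those that fell. U2AF2, the large subunit of the splicing factor that binds the polypyrimidine tract at 3′ splice sites, stood at 274, 279 and 261 CPM in siRNA2 libraries, against 371, 372 and 398 CPM in NTC libraries. Its libraries were tight within each group and did not overlap. It fell by 0.49 ± 0.06 on the log2 scale (edgeR, adjusted p = 6.74e-04). MAF1, a repressor of RNA polymerase III, was at 99.3, 105 and 86.3 CPM in siRNA2 libraries, against 128, 122 and 119 CPM in NTC libraries, again with no overlap, and fell by 0.35 ± 0.06 (edgeR, adjusted p = 0.0196). RPL37, a protein of the large ribosomal subunit, fell by 0.35 (adjusted p = 0.0386, edgeR), with 601 to 698 CPM in siRNA2 libraries, against 764 to 850 CPM in NTC libraries. Ribosomal protein genes have many processed pseudogenes, so its count is uncertain where the counting could split reads. H1FX, a linker histone, was at 96.2, 86.6 and 96.7 CPM in siRNA2 libraries, against 112, 123 and 138 CPM in NTC libraries, and fell by 0.42 (adjusted p = 0.0386, edgeR). MBNL3, a muscleblind-family regulator of splicing, rose by 0.42 ± 0.08 (adjusted p = 0.0321, edgeR). Its groups overlapped, at 206, 162 and 188 CPM in siRNA2 libraries, against 189, 113 and 122 CPM in NTC libraries.

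UNG, the uracil-DNA glycosylase that removes uracil from DNA, had the largest rise among the passing genes above 100 CPM. It stood at 231, 217 and 251 CPM in siRNA2 libraries, against 189, 90.9 and 136 CPM in NTC libraries. The siRNA2 libraries were level with each other, while the NTC libraries were spread and highest in replicate 1. UNG rose by 0.79 ± 0.12 on the log2 scale, 1.73-fold (edgeR, adjusted p = 2.95e-03). The ratio was 0.29 in pair 1, 1.26 in pair 2 and 0.89 in pair 3.

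Cytoskeletal genes moved both ways. EZR encodes ezrin, which ties actin to the plasma membrane, and stood at 258, 241 and 253 CPM in siRNA2 libraries, against 353, 313 and 336 CPM in NTC libraries. No library overlapped, and EZR fell by 0.41 ± 0.06 on the log2 scale (edgeR, adjusted p = 2.58e-03). ARPC1B, a subunit of the Arp2/3 complex that nucleates branched actin, fell by 0.31 ± 0.06 (adjusted p = 0.0386, edgeR), with 50.8 to 55.3 CPM in siRNA2 libraries, against 63.9 to 67.0 CPM in NTC libraries. CAPZA2, which caps the growing end of actin filaments, stood at 84.6, 83.5 and 107 CPM in siRNA2 libraries, against 78.8, 50.5 and 67.1 CPM in NTC libraries, and rose by 0.50 ± 0.09 (adjusted p = 0.0236, edgeR). SLAIN2, which promotes growth of microtubule ends, stood at 63.9, 65.0 and 60.9 CPM in siRNA2 libraries, against 54.0, 33.2 and 37.8 CPM in NTC libraries. Like UNG, its siRNA2 libraries were level and its NTC library of replicate 1 was the highest of the 3. SLAIN2 rose by 0.63 ± 0.10 (edgeR, adjusted p = 2.95e-03).

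Signalling genes included a pair that act on cyclic AMP and G protein pathways. RGS1, a regulator that speeds GTP hydrolysis by G protein alpha subunits, stood at 7.39, 6.14 and 7.22 CPM in siRNA2 libraries, against 4.29, 3.60 and 3.63 CPM in NTC libraries, and rose by 0.85 ± 0.11 on the log2 scale (edgeR, adjusted p = 7.18e-04). PDE4D, a phosphodiesterase that hydrolyses cyclic AMP, stood at 6.79, 6.95 and 9.45 CPM in siRNA2 libraries, against 3.21, 4.52 and 5.12 CPM in NTC libraries, and rose by 0.84 ± 0.12 (edgeR, adjusted p = 1.18e-03). Both were without overlap between groups and of low level. PDE3B, another cyclic nucleotide phosphodiesterase, had the same direction without overlap (123 to 130 CPM in siRNA2 libraries, against 97.7 to 106 CPM in NTC libraries) and did not pass (edgeR, adjusted p = 0.0572). ADGRG1, an adhesion G protein-coupled receptor, stood at 66.4, 72.0 and 70.1 CPM in siRNA2 libraries, against 81.9, 95.9 and 112 CPM in NTC libraries, and fell by 0.46 ± 0.07 (edgeR, adjusted p = 4.26e-03). Lesser rises were those of RRAS2, a Ras-related GTPase (0.35 ± 0.07), PPP1R16B, a regulatory subunit of protein phosphatase 1 (0.35 ± 0.07), and PAQR3, which holds RAF kinase at the Golgi (0.44 ± 0.09), with edgeR adjusted p of 0.0321, 0.0321 and 0.0359.

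Several membrane, vesicle and transport genes rose, as did a hypoxia factor. SYTL3, a synaptotagmin-like protein that binds Rab GTPases on vesicles, had the largest log2 fold change of the 28, at 0.91 ± 0.14 (edgeR, adjusted p = 2.63e-03), with 3.45, 4.03 and 5.56 CPM in siRNA2 libraries, against 1.51, 2.23 and 3.30 CPM in NTC libraries. GINM1, a glycoprotein of the membrane, stood at 36.9, 29.9 and 31.9 CPM in siRNA2 libraries, against 28.0, 21.4 and 23.6 CPM in NTC libraries. Its rise of 0.44 ± 0.07 (edgeR, adjusted p = 2.63e-03) was alike in the 3 pairs. SLC2A3, the glucose transporter GLUT3, stood at 56.5, 25.2 and 34.0 CPM in siRNA2 libraries, against 21.4, 18.0 and 26.1 CPM in NTC libraries. The groups overlapped, and its rise of 0.75 ± 0.13 (edgeR, adjusted p = 7.16e-03) was largest in pair 1. EPAS1, the hypoxia-inducible factor 2 alpha, stood at 6.39, 4.24 and 4.52 CPM in siRNA2 libraries, against 3.89, 1.92 and 2.68 CPM in NTC libraries, and rose by 0.86 ± 0.13 (edgeR, adjusted p = 2.95e-03). PLEKHA8, which transfers glycolipids at the Golgi (0.36), ANO6, a calcium-activated phospholipid scramblase (0.37), and MANEA, a Golgi mannosidase (0.48), had edgeR adjusted p of 0.0321, 0.0321 and 0.0359. The other genes that fell were BTBD2, a BTB-domain protein (-0.37, adjusted p = 0.0236 in edgeR), and LBH, a transcription cofactor (-0.34, adjusted p = 0.0480 in edgeR).

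**Figure D3:**
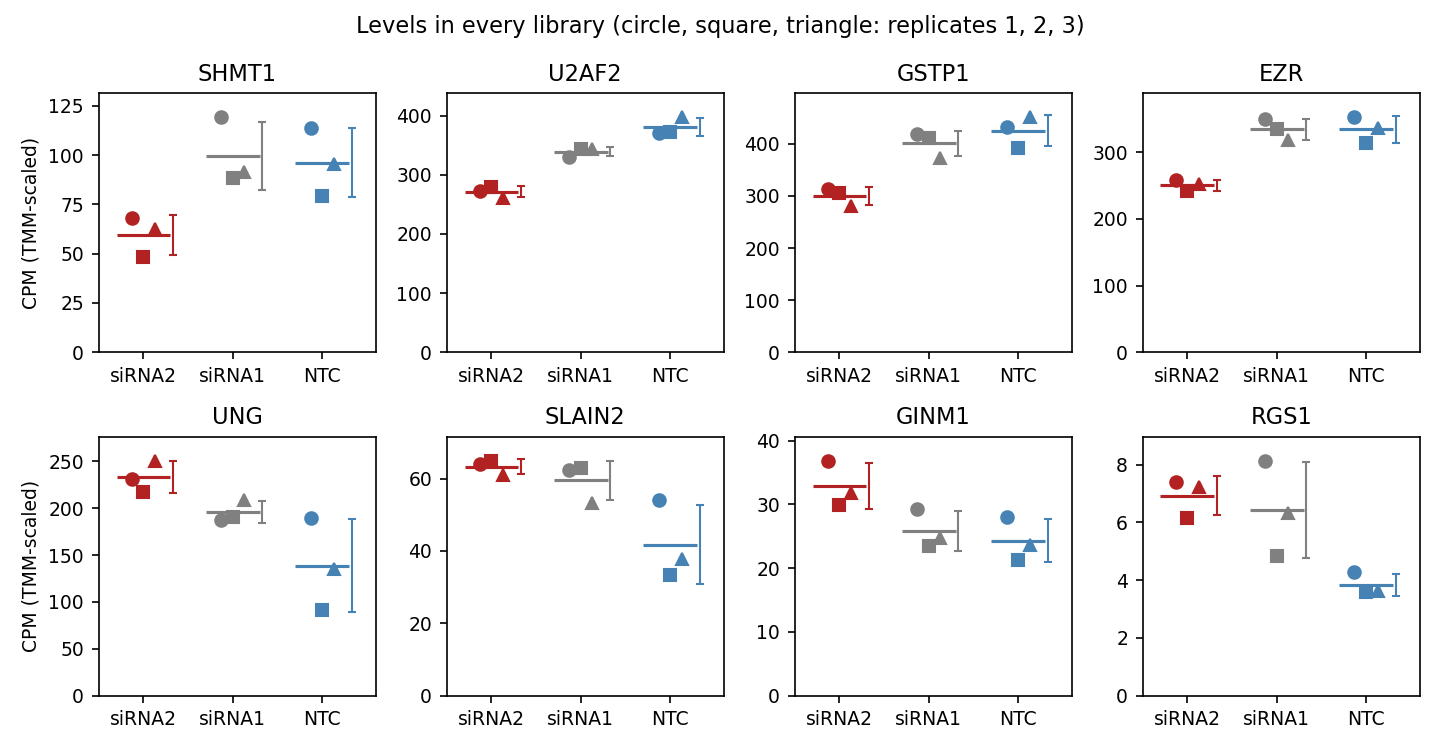
Levels in CPM (y axis, from 0) of 8 genes that passed, in the libraries labelled siRNA2, siRNA1 and NTC (x axis). Points are libraries, lines are means and bars are SD, n = 3. SHMT1, U2AF2, GSTP1 and EZR are lower in all 3 siRNA2 libraries than in every other library, and UNG, SLAIN2, GINM1 and RGS1 are higher in siRNA2 than in NTC libraries.

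Just outside the threshold, CTXN1 and AC144652.1 had an adjusted p of 0.0512 and LPP one of 0.0572 in edgeR. The largest fold among the genes of smallest p that did not pass was that of SLC39A6, a zinc transporter (log2 fold change 1.05 ± 0.23, edgeR adjusted p = 0.0621). It stood at 121, 133 and 122 CPM in siRNA2 libraries, against 114, 29.1 and 54.9 CPM in NTC libraries. Again the siRNA2 libraries were level and the NTC library of replicate 1 was close to them.

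The libraries labelled siRNA1 were set beside these genes. Of the 16 genes that rose in siRNA2, 15 were also above NTC in the siRNA1 libraries and 10 passed there, in a comparison in which 11.4% of genes passed (5.48% higher and 5.93% lower) and which shares the NTC libraries. The median log2 fold change of the 16 against NTC was 0.49 for siRNA2 and 0.44 for siRNA1. RGS1 was at 8.14, 4.83 and 6.33 CPM in siRNA1 libraries, on both sides of the siRNA2 libraries and above all 3 NTC libraries. SLAIN2 was at 62.4, 62.8 and 53.4 CPM in siRNA1 libraries, and the siRNA1 library of replicate 3 lay below the NTC library of replicate 1, so these groups overlapped. The direct test of siRNA1 against siRNA2 passed at 4 of the 16, in a comparison where 10.6% of all genes passed (5.29% higher and 5.27% lower in siRNA1). The 4 were GINM1, EPAS1, PLEKHA8 and PAQR3, all lower in siRNA1 libraries. That comparison shares the siRNA2 libraries by which the 16 were picked.

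Of the 12 genes that fell, 7 were also below NTC in the siRNA1 libraries and 2 passed there as lower, and the median log2 fold change against NTC was -0.39 for siRNA2 and -0.03 for siRNA1. The direct test of siRNA1 against siRNA2 passed at all 12. It shares the siRNA2 libraries by which these genes were picked as low, so this count is a description only. SHMT1, U2AF2, EZR, GSTP1, RPL37, BTBD2, HINT1, ARPC1B, MAF1 and H1FX were higher in siRNA1 than in siRNA2 libraries. EZR, for instance, stood at 350, 335 and 318 CPM in siRNA1 libraries, against 258, 241 and 253 CPM in siRNA2 libraries, with 313 to 353 CPM in NTC libraries. The other 2, ADGRG1 and LBH, were lower still in siRNA1: ADGRG1 stood at 23.1, 30.9 and 30.4 CPM and LBH at 25.7, 21.2 and 29.5 CPM. Without the block 6 of the 28 passed the direct test.

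Gene lists of T cell, metabolic and growth functions were described by their counts and medians. Over all genes tested the median log2 fold change was -0.004 and 48.7% of genes were positive. Cholesterol synthesis genes stood lower: 21 of 23 were negative, with a median of -0.18, and 14 had an unadjusted p under 0.05, all lower (4.5% of all genes tested were lower at such a p), but none passed. MVK, mevalonate kinase, was at 14.7 ± 0.993 CPM in siRNA2 libraries and 18.0 ± 2.01 CPM in NTC libraries (SD, n = 3 each). The list's median was -0.17, -0.07 and -0.27 in pairs 1 to 3, and -0.002 for siRNA1 against NTC.

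Cytosolic ribosomal protein genes had a median of -0.11, with 70 of 78 negative, and 25 of them had an unadjusted p under 0.05, all lower, against 4.5% of all genes tested. RPL37 alone passed, and RPS23 (log2 fold change -0.32) and RPS29 (-0.29) came next. The list's median was -0.11, -0.02 and -0.21 in pairs 1 to 3. Among histone genes 13 of 14 were negative, with a median of -0.19, and H1FX alone passed. Most histone mRNAs lack a poly(A) tail, and the list's median level in these polyA libraries was 2.42 CPM. H1FX, at a mean of 93.2 CPM in siRNA2 libraries and 124 CPM in NTC libraries, stood far above that level and is not typical of the list.

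The GIMAP GTPases, a lymphocyte family that bears on T cell survival, had 7 of 7 negative with a median of -0.23, and 6 were lower at an unadjusted p under 0.05, against 4.5% of all genes tested. None passed, and siRNA2 and NTC libraries overlapped for every member. Their summed level was 321 to 412 CPM in siRNA2 libraries, against 370 to 469 CPM in NTC libraries. GIMAP medians were alike for siRNA1 against NTC, at -0.19, in a comparison that shares the NTC libraries. The 10 B cell genes tested, with a median level of 1.69 CPM, had a median of -0.25, and none passed. For siRNA1 against NTC, which shares the NTC libraries, the list's median was -0.235. Of the 16 B cell genes listed, 9 were under 1 CPM in every library. IGLL1, a surrogate light chain, was at 17.2 ± 7.07 CPM in siRNA2 libraries and 22.6 ± 4.24 CPM in NTC libraries (SD, n = 3 each), and the summed level of the 16 listed B cell genes, before TMM scaling, was 217 to 237 CPM in siRNA2 libraries, against 242 to 265 CPM in NTC libraries. B cell content was not tested.

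In the G1/S and DNA replication list 29 of 34 were negative, with a median of -0.07, and UNG was the only member that passed. TK1, thymidine kinase, had a log2 fold change of -0.24 and did not pass (edgeR, adjusted p = 0.181). In the glycolysis and hypoxia list, which holds SLC2A3, that gene alone passed. Its members went both ways: 14 of 29 were positive, 6 were higher and 1 was lower at an unadjusted p under 0.05 (3.87% and 4.5% of all genes tested), and the median was -0.003, with 0.18, -0.001 and -0.15 in pairs 1 to 3. Of the splicing factors U2AF2 alone passed, and the median was -0.02. Of 13 genes of the RNA interference machinery 9 were positive. AGO2, the Argonaute with slicer activity, had a log2 fold change of 0.26 (247 ± 21.9 CPM in siRNA2 libraries and 205 ± 11.9 CPM in NTC libraries, SD, n = 3 each) and did not pass (edgeR, adjusted p = 0.177).

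Lists of genes linked to T cell maturation and T-ALL had small medians. Of 25 thymocyte stage markers 18 were negative, with a median of -0.08, and none passed. At an unadjusted p under 0.05, 4 were lower and 0 higher (4.5% and 3.87% of all genes tested). Lower in all 3 pairs were 11 of the 25, against 13.6% of all genes tested. The list's median was -0.44 for siRNA1 against NTC. DNTT, the terminal transferase of antigen receptor joining, was at 34.0 ± 8.34 CPM in siRNA2 libraries and 41.2 ± 9.51 CPM in NTC libraries (SD, n = 3 each). Medians were -0.05 for 15 NOTCH1 targets, -0.02 for 31 T cell receptor signalling genes, -0.001 for 27 T cell transcription factors, 0.02 for 21 T-ALL tumour suppressors and -0.02 for 41 interferon-stimulated genes, and no member of these 5 lists passed.

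**Figure D4:**
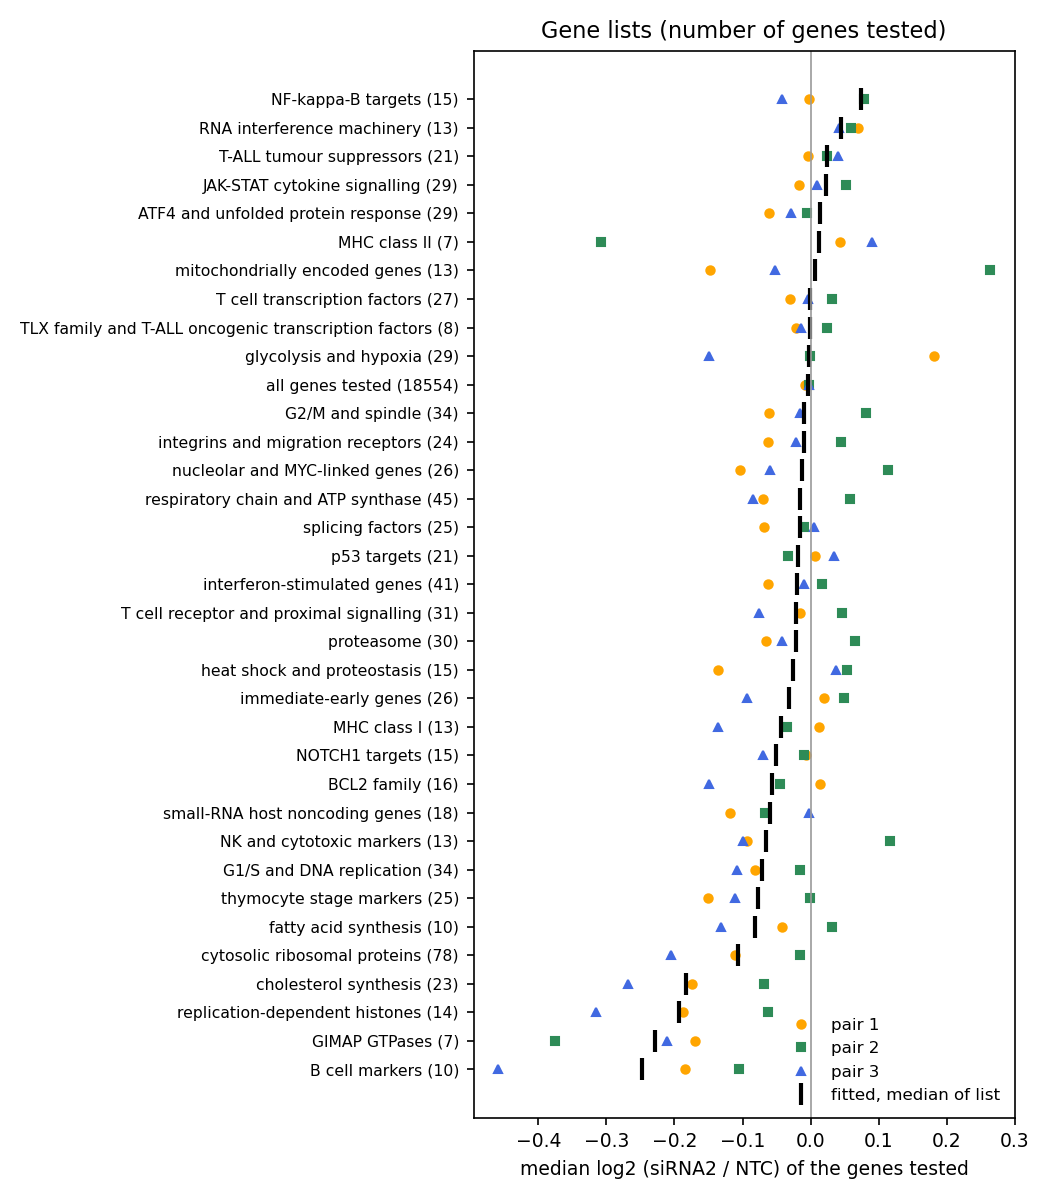
Median log2 ratio of siRNA2 over NTC (x axis) of the genes tested in each list of at least 7 (y axis, number tested in brackets). Coloured symbols are the medians within replicate pairs and black marks those of the fitted log2 fold changes. Lists at the bottom, such as GIMAP GTPases (-0.23) and cholesterol synthesis (-0.18), lie below 0 in all 3 pairs, and most lists lie near the value of all genes (-0.004).

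The 3′ UTRs of expressed genes, whether they passed or not, were searched for 7-base words. Short words in 3′ UTRs are where guide strands pair by their seed. In 10335 genes with a mean of at least 1 CPM, 12999 words found in at least 200 genes were ranked by the mean log2 fold change of genes with the word minus genes without it, centred within 5 classes of UTR length by 5 of GC content. The words were picked by these values, so their differences are a description with no test. The sites below are shown because they are stretches shared by genes that passed: the AATCACT sites are of genes that rose, and the CCGCAGA sites are of 4 genes that fell and of RGS1, which rose. The first and second highest words, ATCACTA and AATCACT, overlap by 6 letters and AATCACT lies in more genes. The lowest word was CCGCAGA. Sequences are read 5′ to 3′ on the transcript (GENCODE 29), with the word in capitals.
UNG: ttttaaccgactgaAATCACTttg
GINM1: gtgactcagtataaAATCACTgaa
EPAS1: aatcctgctcacaaAATCACTtta
SLAIN2: tttggtaatcatacAATCACTctc
U2AF2: cagaggagtgacagCCGCAGAcac
EZR: aggtggattccatgCCGCAGAcat
ADGRG1: cccaggccagtcagCCGCAGActt
BTBD2: ccagagctcccctgCCGCAGAatg
RGS1: caaaaacagagagaCCGCAGAagg
All 9 lie in 3′ UTR exons on GRCh38: UNG at chr12:109110754-109110777 (+), GINM1 at chr6:149591601-149591624 (+), EPAS1 at chr2:46385459-46385482 (+), SLAIN2 at chr4:48422270-48422293 (+), U2AF2 at chr19:55674156-55674179 (+), EZR at chr6:158765771-158765794 (-), ADGRG1 at chr16:57663665-57663688 (+), BTBD2 at chr19:1985709-1985732 (-) and RGS1 at chr1:192579506-192579529 (+).

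AATCACT was in the 3′ UTR of 9 of the 16 genes that rose and of 0 of the 12 that fell. Of all genes searched, of any UTR length, 13.8% held it. The 9 were GINM1, UNG, SLAIN2, EPAS1, CAPZA2, PLEKHA8, ANO6, MANEA and PAQR3, with 1 copy in GINM1, UNG and EPAS1, 2 in SLAIN2 and ANO6, 3 in CAPZA2, MANEA and PAQR3 and 4 in PLEKHA8. SYTL3, RGS1, PDE4D, SLC2A3, MBNL3, RRAS2 and PPP1R16B rose and held none in the transcripts searched. The 3′ UTR searched had only 7 bases in PDE4D and 265 in SYTL3. Of 444 genes searched that were higher at an unadjusted p under 0.05, 44.8% held the word, against 6.04% of 579 that were lower and 12.8% of the other 9312. The mean log2 fold change was 0.05 in the 1423 genes with the word and -0.02 in the 8912 without it. It was 0.05 with 1 copy and 0.07 with 2 or more.

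Genes with AATCACT had longer 3′ UTRs, with a median of 3063 bases against 867 in genes without it. With at most 421 bases, 47 of 2590 genes held the word, against 906 of 2583 with more than 2338. The 9 genes that rose and held it had 910 to 8661 bases, and the 12 that fell had 79 to 7242. The counts and shares above were not matched for UTR length, and how far they follow from it was not tested. With at most 421 bases the mean log2 fold change was 0.0546 in genes with the word and -0.035 in those without it. With more than 2338 bases these means were 0.0559 and 0.007. Centring fold changes within strata of length and GC content removes part of the word's own shift, as genes with it enter each stratum's mean. The difference in mean so centred, over all genes searched, was 0.0368 on the log2 scale. It was 0.0154, 0.0488 and 0.0461 in pairs 1 to 3. Pair 1 was the lowest, as it was for most of the genes that rose. In siRNA1 against NTC, which shares the NTC libraries, the same difference was 0.0291, and in siRNA1 against siRNA2 it was -0.0077. The longest annotated 3′ UTR of each gene held the word in 11 of the 16 genes that rose and in 1 of the 12 that fell. The share of all genes that held it in these longer 3′ UTRs was not computed, so the 13.8% above is no background for these counts.

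CCGCAGA was in the 3′ UTR of 6 of the 12 genes that fell and of 1 of the 16 that rose, RGS1. Of all genes searched, of any UTR length, 2.81% held it. The 6 were U2AF2, EZR, ADGRG1, MAF1, BTBD2 and RPL37. The annotated RPL37 transcript has a 3′ UTR of 7242 bases, and the same word also lies in its 5′ UTR and its coding part. SHMT1, GSTP1, HINT1, ARPC1B, H1FX and LBH fell and held none in the transcripts searched, where the 3′ UTR of GSTP1 had only 79 bases. Of the genes lower at an unadjusted p under 0.05, 7.60% held the word, against 1.13% of those higher. With fold changes centred in the same way, the difference in mean was -0.0343 on the log2 scale, with 290 genes holding the word. It was -0.0263, -0.0394 and -0.0387 in pairs 1 to 3. It was -0.0150 in siRNA1 against NTC and 0.0193 in siRNA1 against siRNA2. The longest annotated 3′ UTR held CCGCAGA in 6 of the 12 genes that fell and in 2 of the 16 that rose, again with no share over all genes computed.

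**Figure D5:**
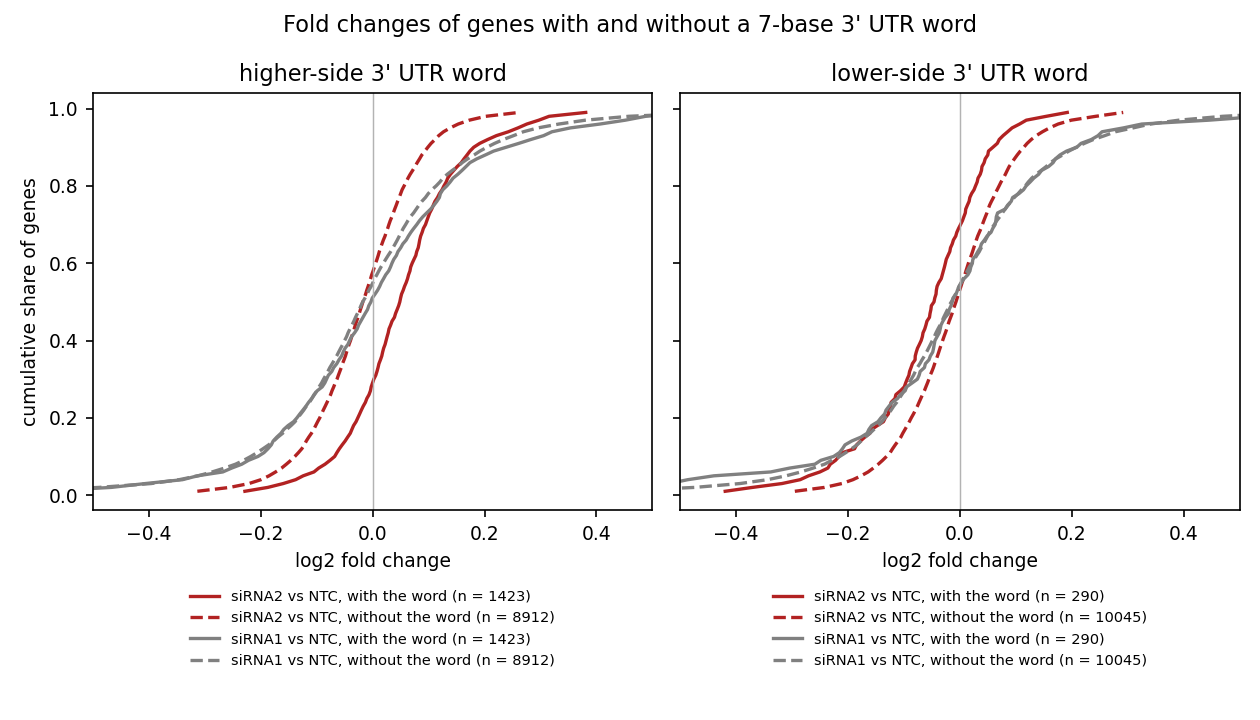
Cumulative share of genes (y axis) by log2 fold change (x axis) for genes with (solid) and without (dashed) the word of the highest shift (left) and of the lowest shift (right), in siRNA2 against NTC (red) and siRNA1 against NTC (grey). In siRNA2 against NTC the 1423 genes with the word at left lie to the right of the other 8912, and the 290 genes with the word at right lie to the left of the other 10045.

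TLX1 itself holds each of these words once, both in its coding part, and none in its 3′ UTR of 876 bases. The share of all genes that hold either word in the coding part was not computed, so the presence of these sites is a description only. Among the genes that passed, CAPZA2 and MANEA also hold AATCACT in the coding part, and RPL37 holds CCGCAGA there. The TLX1 sites are shown because TLX1 is the mRNA the siRNAs are named for.
TLX1 coding site 1: tggatggagagtaaCCGCAGAtac
TLX1 coding site 2: gacgactcgaccaaAATCACTagc
They lie at chr10:101132067-101132090 and chr10:101136860-101136883 (GRCh38, plus strand). GCAGTAC, the word with the lowest shift when siRNA1 is set against NTC, has a difference of -0.1374 there and of 0.0022 in siRNA2 against NTC, and TLX1 holds it 0 times. Among 2370 mature human miRNAs (RefSeq, GRCh38.p14) hsa-miR-8062 alone had a seed (bases 2 to 8) that pairs in full with AATCACT, and none had one for CCGCAGA. Whether the strands of the siRNAs used pair with these words was not tested, since those strands are unknown here.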

How the data were processed

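PolyA RNA of ALL-SIL cells was sequenced, per the labels. The deposited values are counts, whole numbers of reads per gene in 1 table per library, not normalized; per the submitters' processing notes the build was GRCh38, and an aligner or annotation is not named in the sources used here, though the table layout is that of STAR's gene counts. Leading lines of every table (4 of them), which sum reads outside single genes, were dropped; 75.5% to 77.6% of reads fell in genes. The count made without regard to strand was used, as the kit is unstranded per the labels' protocols. Of 58096 identifiers 57492 matched GENCODE 29, which gave symbols, positions and transcripts.

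A quasi-likelihood fit of all 9 libraries was made in edgeR 4.0.16 (R 4.3.3), with the replicate number as a block, TMM factors of 0.975 to 1.04 and 18554 genes kept by filterByExpr (minimum count 10, minimum total 15). It leaves 4 residual degrees of freedom, shared by the 3 groups. The threshold was an adjusted p (Benjamini-Hochberg) under 0.05. Same-numbered siRNA2 and NTC libraries deviated together from their group means (r = 0.533, 0.383 and 0.387 over genes, which are not independent), so the numbers were taken to pair the libraries. No replicate repeated another (chi-square per degree of freedom of at least 32.1). On data simulated from fitted means and the fit's own spread, the test recovered 77.6%, 90.1% and 100% of genes changed 1.3, 1.5 and 2-fold. The changed genes were drawn only from those with a fitted mean above 100 counts, so the recovery does not cover genes of fewer counts. Of 18304 genes tested there, changed ones included, 8 unchanged genes were called. Counts come from PCR reads without molecular identifiers, so depth bounds counting error only.

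Named are TLX1, TLX2 and TLX3, every gene that passed, members of lists that passed or lay at their ends, and the 5 each way of smallest p that did not pass. RPS23, RPS29, IGLL1 and DNTT were added after their values were seen. The comparison, lists and words were chosen with earlier results of these data known. Word positions came from the principal transcript of each gene. Alternatives were DESeq2 1.42.0, limma-voom 3.58.1, other scalings and filters, no block, 6 libraries alone, and each library left out.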

Additional observations from a re-analysis of the deposited data

Results flagged for a closer look

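At 16 of the 28 genes that passed in siRNA2 against NTC, the libraries labelled siRNA1 and siRNA2 differed in the direct test (edgeR with the replicate block, adjusted p from 7.70e-11 to 0.0393). The direct test shares the siRNA2 libraries by which the 28 were picked, so these differences are described only. The log2 difference, siRNA1 minus siRNA2, was -1.32 for ADGRG1, -0.75 for EPAS1, -0.75 for LBH, -0.49 for PAQR3, -0.35 for GINM1 and -0.22 for PLEKHA8, all lower in siRNA1. It was 0.74 for SHMT1, 0.43 for BTBD2, 0.43 for RPL37, 0.42 for GSTP1, 0.42 for EZR, 0.36 for ARPC1B, 0.35 for HINT1, 0.32 for U2AF2, 0.30 for MAF1 and 0.30 for H1FX, all higher in siRNA1. In 9 of the 12 genes that fell, all 3 siRNA1 libraries were above all 3 siRNA2 libraries, and in 2, ADGRG1 and LBH, all 3 were below; over all genes tested, 14.4% had these groups apart in either direction.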

How the results depend on the processing

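Genes called in siRNA2 against NTC were 28 (16 higher, 12 lower) with the replicate block. Without the replicate block 0 were called, 0 higher and 0 lower, both over all 9 libraries and over the 6 libraries compared. In siRNA1 against NTC 238 passed without the block, 87 higher and 151 lower, against 2117 (1016 higher and 1101 lower) with it. Of the 28 genes, 6 differed between siRNA1 and siRNA2 without the block, against 16 with it. With the block the count was 105 (60 higher, 45 lower) in the 6 libraries alone, 158 (69 higher, 89 lower) with no filter beyond 1 count, 105 (53 higher, 52 lower) with DESeq2, 38 with RLE factors, 30 with limma-voom, 25 with library size alone and 23 with a CPM of at least 1 in 3 libraries. In edgeR the lowest adjusted p was 2.1e-36 in the 6 libraries alone and 5.5e-40 with no filter beyond 1 count, against 1.97e-05 in the main fit. Such values are implausibly small for so few libraries, so these larger counts call for caution. In the 6 libraries alone 1236 genes had an unadjusted p under 0.05 in edgeR, fewer than the 1553 of the main fit. The 28 genes were all among those called in the 6 libraries alone, without the filter, with RLE factors and with limma-voom, and 25 of them were with DESeq2. Leaving out a library or a replicate number gave 4 to 108 genes (1 to 62 higher, 3 to 46 lower) in siRNA2 against NTC and 1139 to 2979 (558 to 1344 higher, 581 to 1635 lower) in siRNA1 against NTC. In those fits 13 to 18 of the 28 genes differed between siRNA1 and siRNA2. The cause of these differences was not tested. TLX1 kept its sign and did not pass in any setting (log2 fold change 0.04 to 0.28 with a library or replicate left out). The word differences stayed between 0.0300 and 0.0482 for AATCACT and between -0.0389 and -0.0277 for CCGCAGA. None of the 28 genes changed sign in any of these fits. With 3 libraries a group and 4 residual degrees of freedom, small differences in genes of few counts are beyond what these data can show.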
